A study of Mus musculus with 4 samples.

Results

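Acute phase proteins are plasma proteins that the liver makes in larger amounts during infection or injury, and 10 inducible ones were followed here in livers with and without the Cyp3a cluster. They were chosen by name: the serum amyloid A genes Saa1, Saa2 and Saa3, the orosomucoid genes Orm1, Orm2 and Orm3, lipocalin 2 (Lcn2), haptoglobin (Hp), serum amyloid P (Apcs) and lipopolysaccharide binding protein (Lbp). All 10 had a probe on the array, 1 each, and all 10 were among the 17552 genes or other features tested. Total RNA came from the livers of 2 Cyp3a-/- mice, which lack the cluster of Cyp3a genes, and of 2 wild type mice. Each liver was hybridised to its own 1-colour array, and no treatment was named for either genotype. The series text speaks of different animals in independent experiments. It gives neither the sex, age or strain of the mice nor how they were fed. Cyp3a genes encode cytochrome P450 enzymes that oxidise drugs and steroids in the liver, and the comparison asks which liver transcripts differ without them.

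In the acute phase response, interleukin 6 and interleukin 1 from activated macrophages reach the hepatocyte and switch on the transcription factors STAT3, C/EBP beta and NF-kB. These raise the transcription of a set of secreted proteins that bind lipids, haemoglobin, iron carriers or bacterial products, while carrier proteins such as albumin are made less. The levels of several of these transcripts differ widely between animals.

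The arrays were alike in 3 measures. The share of probes well above background ran from 54.4% to 56.4%, the 75th percentile of the processed intensities ran from 308 to 352, and 0 spots were saturated. Over all features, Cyp3a-/- 2 differed less from wild type 1 and 2 (median absolute log2 difference 0.210 and 0.229) than from Cyp3a-/- 1 (0.247). Cyp3a-/- 1 differed from wild type 1 and 2 by 0.287 and 0.283. Cyp3a11, the main Cyp3a transcript of mouse liver, had scaled signals of 0.0079 and 0.0082 in the Cyp3a-/- livers, against 245 and 272 in the wild type livers. A scaled signal is the processed intensity divided by the 75th percentile of its array, so that 1 is the level of the 75th percentile. In both Cyp3a-/- livers Cyp3a11 was not well above background, and it was at least 7204-fold lower there (limma adjusted p = 1.5e-05). The hepatocyte gene Alb was bright on all 4 arrays, at 799 and 815 in the Cyp3a-/- livers against 814 and 654 in the wild type livers. The wild type arrays shared slide 1, while the Cyp3a-/- arrays were on slides 2 and 3, so slide and genotype cannot be told apart. The RNA is that of whole tissue, in which fewer cells of a type and less RNA per cell cannot be told apart.

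None of the 10 acute phase genes passed the threshold, an adjusted p of 0.05 over all features (limma; 0 higher and 0 lower), where 0.273% of all features did. At an unadjusted p under 0.05, 1 of the 10, Orm3, was higher and 0 were lower, against 4.6% of all features higher and 5.4% lower. The median log2 fold change of the 10, Cyp3a-/- minus wild type, was -0.01, beside 0.01 over all features, with 5 members above 0 and 5 below. Orm3 was the exception in size: 2.93-fold higher in the Cyp3a-/- livers, a difference that did not pass. Saa1, Saa2, Lcn2 and Orm3 differed by 0.68 to 0.93 (log2) between the wild type livers, which is larger than most features did.

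**Figure D1:**
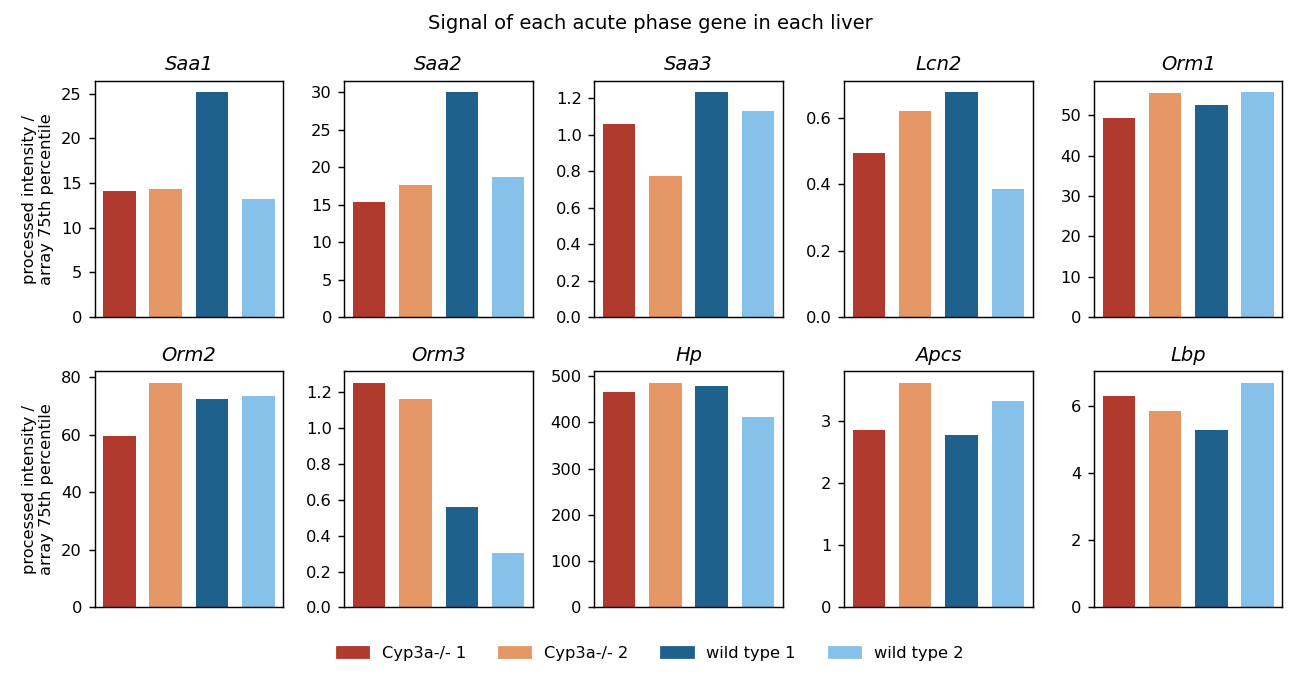
Processed intensity divided by the array's 75th percentile (vertical axis, linear, from 0) of each acute phase gene; the bars are the 2 Cyp3a-/- livers and then the 2 wild type livers, 1 array each. Orm3 is the 1 gene with both Cyp3a-/- livers above both wild type livers, and wild type 1 stands highest for Saa1, Saa2, Saa3 and Lcn2. The vertical scales differ between genes, and levels of different genes are not to be set against each other.

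The orosomucoids, also called alpha-1-acid glycoproteins, are secreted carriers of lipophilic drugs and other small molecules. Orm3 had scaled signals of 1.25 and 1.16 in the Cyp3a-/- livers, against 0.559 and 0.302 in the wild type livers. Both Cyp3a-/- livers lay above both wild type livers, the Cyp3a-/- livers were close to each other, and the wild type livers were 1.85-fold apart. The log2 fold change was 1.55 ± 0.32 (SE, n = 2 per genotype; 95% interval 0.75 to 2.35; limma adjusted p = 0.246). As a fold this is 2.93, with an interval of 1.69 to 5.09, and the change was larger in size for 1.13% of all features. The probe, A_51_P311958, was well above background on all 4 arrays.

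The direction was the same in all 15 alternative settings, with log2 fold changes between 1.11 (without wild type 2) and 1.99 (without wild type 1). Leaving out 1 array could not have turned it, since the genotypes did not overlap. Nor could the filter, probe and block settings, which leave the value of this 1 probe unchanged. The call depended on the scaling: with each array centred on its median Orm3 passed at 1.58 (limma adjusted p = 6.7e-05), the 1 member to do so. In that setting limma gave every feature the same variance, and 3.79% of all features passed.

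Orm1 and Orm2 did not show this difference. Orm1 had scaled signals of 49.3 and 55.6 in the Cyp3a-/- livers, against 52.5 and 55.7 in the wild type livers, and the genotypes overlapped (log2 fold change -0.05 ± 0.18, SE; 95% interval -0.50 to 0.40; limma adjusted p = 0.948). Orm2 had 59.5 and 78.1 in the Cyp3a-/- livers, against 72.4 and 73.6 in the wild type livers, again with overlap (-0.10 ± 0.21; interval -0.62 to 0.42; adjusted p = 0.893). In folds, Cyp3a-/- over wild type, the intervals are 0.709 to 1.32 for Orm1 and 0.652 to 1.34 for Orm2, both below the 2.93-fold of Orm3. The log2 ratio of Orm3 to Orm1 was higher in Cyp3a-/- livers by 1.60 (3.02-fold), and that of Orm3 to Orm2 by 1.65 (3.14-fold). All Cyp3a-/- livers lay above all wild type livers in both ratios, which gives a 2-sided exact permutation p of 0.333 over the 4 livers, the smallest that 2 against 2 allows. The ratio of Orm2 to Orm1 changed by -0.05 (exact permutation p = 1).

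The 3 orosomucoid genes stand side by side on chromosome 4, in the order Orm1, Orm3, Orm2. They are close copies of one another. Probe sequences were not used here, so how far each probe reads the other copies was not tested. The upstream sequences of Orm2 and Orm3 show how alike these genes are just before their starts, while their signals over the livers were not alike. Over windows of 250 bases before to 50 after the gene start (RefSeq, GRCm38.p6), the sequences were identical at 89.5% of aligned bases (264 of 295). The 250 bases before the start are given, with matches to the C/EBP letters TTGCNNAA in capitals.
Orm3, chr4:63355908-63356157, plus strand: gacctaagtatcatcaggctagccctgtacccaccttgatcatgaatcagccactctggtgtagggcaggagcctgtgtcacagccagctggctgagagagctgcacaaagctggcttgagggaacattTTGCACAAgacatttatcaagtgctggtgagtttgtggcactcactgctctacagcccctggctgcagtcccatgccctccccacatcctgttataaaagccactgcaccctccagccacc
Orm2, chr4:63362199-63362448, plus strand: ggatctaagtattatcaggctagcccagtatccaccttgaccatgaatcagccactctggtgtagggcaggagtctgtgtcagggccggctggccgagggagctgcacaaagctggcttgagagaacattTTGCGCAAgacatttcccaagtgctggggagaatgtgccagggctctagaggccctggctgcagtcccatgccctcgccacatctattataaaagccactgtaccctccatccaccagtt
Each window held 1 such match, starting 121 bases before the start in Orm3 and 120 bases before it in Orm2. Neither held a match to the STAT letters TTCNNNGAA or the NF-kB letters GGNNTTTCC.

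Serum amyloid A proteins are carried on high density lipoprotein in plasma, and in mice Saa1 and Saa2 are the main hepatic forms, while Saa3 is also made by macrophages and fat cells. Saa1 had scaled signals of 14.1 and 14.3 in the Cyp3a-/- livers, against 25.1 and 13.2 in the wild type livers. Only wild type 1 stood high, and the genotypes overlapped. The log2 fold change was -0.36 ± 0.33 (SE, n = 2 per genotype; 95% interval -1.18 to 0.46; limma adjusted p = 0.740), and it turned to 0.11 without wild type 1.

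Saa2 was also highest in wild type 1, with 15.4 and 17.7 in the Cyp3a-/- livers against 30.0 and 18.7 in the wild type livers. Both Cyp3a-/- livers lay below both wild type livers, by a small margin for wild type 2 (-0.52 ± 0.27; interval -1.21 to 0.16; limma adjusted p = 0.588). Without wild type 1 the value was -0.18. Saa3 had 1.06 and 0.774 in the Cyp3a-/- livers, against 1.23 and 1.13 in the wild type livers, and here Cyp3a-/- 2 was the low one (-0.38 ± 0.22; interval -0.93 to 0.17; adjusted p = 0.617). Of the 10 members, 2 (Saa2 and Saa3) had both Cyp3a-/- livers below both wild type livers and 1 (Orm3) had both above. Over all features the shares were 20.2% below and 22.7% above.

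Saa1 and Saa2 are neighbours on chromosome 7, in the same cluster as Saa3 and Saa4. The gene table used for names lists Saa1 as an older name of Saa2 and Saa2 as an older name of Saa1, so values under these names in other sources may be exchanged. Saa4, the constitutive member of the cluster, had 12.9 and 18.8 in the Cyp3a-/- livers against 15.6 and 13.4 in the wild type livers, and did not share the high value of wild type 1. How far the probes of Saa1 and Saa2 read each other's transcripts was not tested, so their signals may not be separate readings. Saa1 and Saa2 were both highest in wild type 1, while wild type 2 was lowest for Saa1 and above both Cyp3a-/- livers for Saa2. Their upstream sequences were identical at 96% of aligned bases (287 of 299). The Saa3 window was identical to the Saa1 window at 78% (192 of 246). Whether likeness of these sequences bears on the signals was not tested. That alignment held 108 gap columns, which were not counted, against 2 for Saa1 and Saa2. The 78% thus covers only part of the windows. The 250 bases before each start are given (RefSeq, GRCm38.p6), with matches to the C/EBP and NF-kB letters in capitals.
Saa1, chr7:46742981-46743230, minus strand: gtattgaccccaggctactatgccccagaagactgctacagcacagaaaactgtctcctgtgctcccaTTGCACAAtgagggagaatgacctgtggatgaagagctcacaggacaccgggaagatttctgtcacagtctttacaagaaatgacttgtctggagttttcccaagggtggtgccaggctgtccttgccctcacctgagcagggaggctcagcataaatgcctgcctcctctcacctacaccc
Saa2, chr7:46751583-46751832, plus strand: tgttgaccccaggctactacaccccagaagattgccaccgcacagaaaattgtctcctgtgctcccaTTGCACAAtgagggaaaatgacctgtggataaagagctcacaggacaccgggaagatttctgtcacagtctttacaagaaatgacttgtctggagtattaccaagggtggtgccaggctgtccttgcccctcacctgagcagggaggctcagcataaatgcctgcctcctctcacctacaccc
Saa3, chr7:46715677-46715926, minus strand: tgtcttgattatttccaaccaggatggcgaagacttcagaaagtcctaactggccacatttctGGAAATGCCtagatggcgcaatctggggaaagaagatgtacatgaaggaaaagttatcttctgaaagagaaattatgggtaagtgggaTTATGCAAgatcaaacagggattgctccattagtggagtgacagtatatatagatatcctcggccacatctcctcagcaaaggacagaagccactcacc
The capitals in Saa1 and Saa2 are 1 C/EBP match each, starting 182 and 183 bases before the start. In Saa3 the first run of capitals is the NF-kB match, 187 bases before the start, and the second is the C/EBP match, 99 bases before it.

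Windows were at hand for 7 of the 10 members (Saa1, Saa2, Saa3, Lcn2, Orm2, Orm3 and Apcs). The C/EBP letters were found, on either strand, in 6 of these 7, and in 10.8% of all 32851 windows of the same length. The 6 are not separate observations. The windows of Saa1 and Saa2 were 96% identical and those of Orm2 and Orm3 89.5%, each pair with its match at nearly the same place. The STAT letters were found in 1 of 7, Apcs, and in 8.3% of all windows, and the NF-kB letters in 1 of 7, Saa3, and in 5.82%. No matches of different motifs overlapped in these windows. A match describes the letters alone, and it was held both by Orm3 and by genes whose genotypes overlapped.

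Lipocalin 2 binds bacterial iron carriers and is made by inflamed hepatocytes and by neutrophils. Lcn2 had scaled signals of 0.495 and 0.620 in the Cyp3a-/- livers, against 0.677 and 0.387 in the wild type livers. The wild type livers were the highest and the lowest of the 4, with both Cyp3a-/- livers between them. The log2 fold change was 0.11 ± 0.31 (SE, n = 2 per genotype; 95% interval -0.67 to 0.89; limma adjusted p = 0.919) and turned to -0.29 without wild type 2.

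The remaining members, Hp, Apcs and Lbp, showed overlapping genotypes. Haptoglobin binds free haemoglobin, and Hp had 466 and 485 in the Cyp3a-/- livers, against 479 and 412 in the wild type livers (log2 fold change 0.10 ± 0.18, SE; 95% interval -0.36 to 0.56; limma adjusted p = 0.878). Serum amyloid P is a pentraxin and a major acute phase reactant of the mouse, and Apcs had 2.86 and 3.62 in the Cyp3a-/- livers, against 2.79 and 3.32 in the wild type livers (0.08 ± 0.21; interval -0.45 to 0.61; adjusted p = 0.916). Liver 2 was the higher one within each genotype. Lbp passes bacterial lipopolysaccharide on to CD14 and had 6.30 and 5.84 in the Cyp3a-/- livers, against 5.28 and 6.68 in the wild type livers (0.03 ± 0.20; interval -0.47 to 0.53; adjusted p = 0.969). The widest of these 3 intervals, that of Apcs, runs from 0.731-fold to 1.53-fold. These intervals are not adjusted over all features, so their ends do not mark the smallest difference that would have passed. Orm3, at 2.93-fold, did not pass with 2 arrays per genotype (limma adjusted p = 0.246). How large a difference would have passed for Hp, Apcs or Lbp was not tested.

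**Figure D2:**
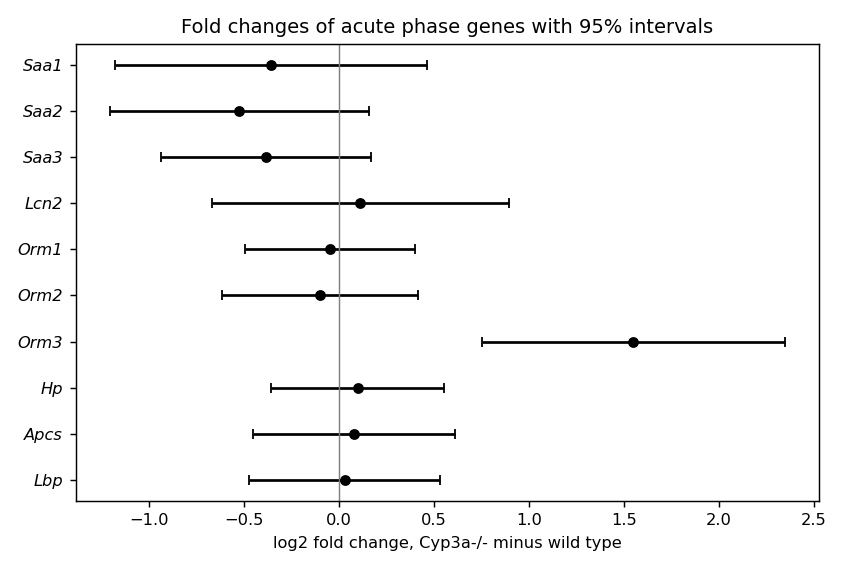
Log2 fold change of each acute phase gene, Cyp3a-/- minus wild type (points), with the 95% interval from limma (bars; 2 livers per genotype). The interval of Orm3, 0.75 to 2.35, lies above 0, those of the other 9 genes include 0, and none of the 10 passed after adjustment over all features.

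The members varied among animals of the same genotype in separate ways. Wild type 1 exceeded wild type 2 by 0.93 (log2) for Saa1, 0.89 for Orm3, 0.81 for Lcn2 and 0.68 for Saa2. Only 2.62% of all features differed more between these livers than Saa1, 3.07% more than Orm3, 4.13% more than Lcn2 and 6.57% more than Saa2. Both wild type arrays were on the same slide. Orm1, Orm2, Saa3, Hp, Apcs and Lbp differed by 0.34 or less between the wild type livers, in either direction.

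Between the Cyp3a-/- livers no member differed by more than the 0.45 of Saa3, and Saa1 differed by 0.01. The median absolute difference of the 10 members was 0.19 between the Cyp3a-/- livers and 0.30 between the wild type livers, beside 0.25 and 0.20 over all features. The highest of the 4 livers was wild type 1 for 4 members, Cyp3a-/- 2 for 3, wild type 2 for 2 and Cyp3a-/- 1 for 1. The lowest was wild type 2 for 4 members and Cyp3a-/- 1 for 3.

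**Figure D3:**
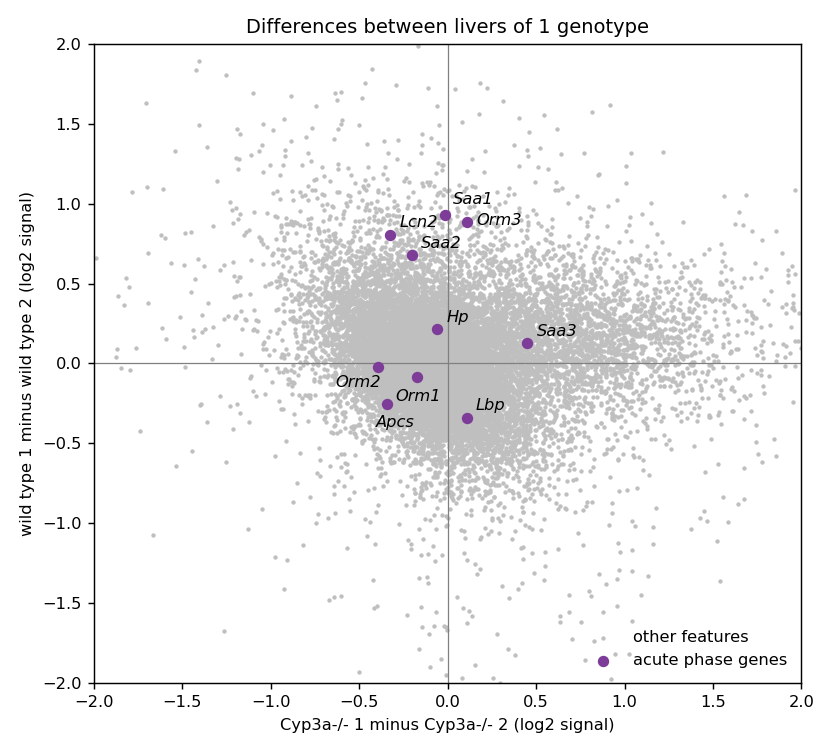
Difference in log2 signal between the Cyp3a-/- livers (horizontal) and between the wild type livers (vertical) for the 10 acute phase genes (large points) and the other features (small points; 107 lie beyond the axes). Saa1, Orm3, Lcn2 and Saa2 lie 0.68 to 0.93 above 0 on the vertical axis and within 0.33 of 0 on the horizontal one.

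By the root mean square distance of centred log2 signals over the 4 livers, the named genes nearest to the mean of Saa1 and Saa2 were Tnxb (0.04), Erbb2 (0.05) and D7Ertd143e (0.05). Their common pattern was a high wild type 1. Of 13084 named genes compared, 13 lay within 0.1. The genes nearest to the mean of the 3 orosomucoids were Abat (0.01), Arf5 (0.02) and Slc2a2 (0.02), and 235 genes lay within 0.1. Relative to the mean of the 4 livers, the orosomucoid mean (log2) stood at 0.16 and 0.31 in the Cyp3a-/- pair, against -0.10 and -0.36 in the wild type pair. Orm3 alone carried this separation, at 0.83 and 0.72 against -0.33 and -1.22 in the wild type pair, while Orm1 and Orm2 overlapped, so the nearest genes are near to a pattern set by 1 member. With 4 livers such likeness is common and serves as description.

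Positive acute phase genes are those that rise in inflammation. Of 22 others listed as such, with the constitutive Saa4 among them, 20 were tested and none passed (0 higher, 0 lower; limma; 1 higher and 1 lower at an unadjusted p under 0.05). Their median log2 fold change was -0.12. Hamp, the gene of the iron hormone hepcidin, had scaled signals of 26.2 and 19.2 in the Cyp3a-/- livers, against 52.5 and 46.9 in the wild type livers (-1.15 ± 0.22, SE; limma adjusted p = 0.229; -1.12, adjusted p = 0.017, with median scaling). Fgl1, a fibrinogen-like protein induced by interleukin 6, had 61.5 and 68.9 against 49.2 and 45.1 in the wild type livers (0.47 ± 0.18; adjusted p = 0.490). Fgb, the beta chain of fibrinogen, was low in Cyp3a-/- 1 alone, at 140, with 505 in Cyp3a-/- 2 against 495 and 504 in the wild type livers (-0.91 ± 0.58; adjusted p = 0.642). Without Cyp3a-/- 1 the value was 0.02, and without Cyp3a-/- 2 it was -1.83 (adjusted p = 0.018). That p sets 1 array against a spread taken from the wild type pair and the fit's prior alone, so it says nothing about the spread of Fgb among Cyp3a-/- livers. A2m and Il1rn were not well above background on any array.

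Among 11 negative acute phase genes, which fall in inflammation, none of the 11 tested passed (0 higher, 0 lower; limma; 0 with p below 0.05 before adjustment), with a median of 0.08. Igf1, the growth factor that the liver releases into blood, stood at 0.21 ± 0.18 (log2 fold change, SE; limma adjusted p = 0.721). Apoa1, the main protein of high density lipoprotein, stood at -0.18 ± 0.27, and Serpina6, which binds corticosteroids in plasma, at 0.17 ± 0.22. The list's values lay between -0.18 and 0.21, a narrower range than that of the members.

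Of 20 genes of the inducing cytokines, their receptors and their signalling, 18 were tested and none passed (0 higher, 0 lower; 1 each way at an unadjusted p under 0.05; median -0.06). Il6 and Tnf were not well above background on any array. Cebpb, the C/EBP factor best known for driving acute phase genes, had scaled signals of 16.8 and 19.3 in the Cyp3a-/- livers, against 9.86 and 12.3 in the wild type livers (0.71 ± 0.20, SE; limma adjusted p = 0.361). Cebpd, a related factor, had 2.61 and 2.16 in the Cyp3a-/- livers, against 1.22 and 1.89 in the wild type livers (0.64 ± 0.27; adjusted p = 0.523). For both genes the Cyp3a-/- livers lay above the wild type livers. Of the 18 genes tested, 4 lay above in this way and 4 below, beside 22.7% and 20.2% of all features. Il1r1, the receptor of interleukin 1, had 1.19 and 1.18 against 1.54 and 1.87 in the wild type livers (-0.52 ± 0.19; adjusted p = 0.470). Socs3, a feedback inhibitor that STAT3 induces, had 1.17 and 0.883 in the Cyp3a-/- livers, against 1.08 and 1.79 in the wild type livers, and was highest in wild type 2, where Saa1 and Lcn2 were lowest.

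Of 10 receptors and partners of the members, 9 were tested and none passed (0 higher, 0 lower; 1 lower at an unadjusted p under 0.05; median -0.07). Tlr4, which senses the lipopolysaccharide that Lbp delivers, had 0.075 and 0.141 in the Cyp3a-/- livers, against 0.061 and 0.063 in the wild type livers (0.74 ± 0.32, SE; limma adjusted p = 0.539; 0.28 without Cyp3a-/- 2). Lrp2, an endocytic receptor that takes up lipocalin 2 in the kidney, was below that background limit in both Cyp3a-/- livers and at least 1.44-fold lower there (adjusted p = 0.398). Hmox1, which degrades the haem that haptoglobin helps to clear, stood at -0.42 ± 0.22 (adjusted p = 0.593).

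**Figure D4:**
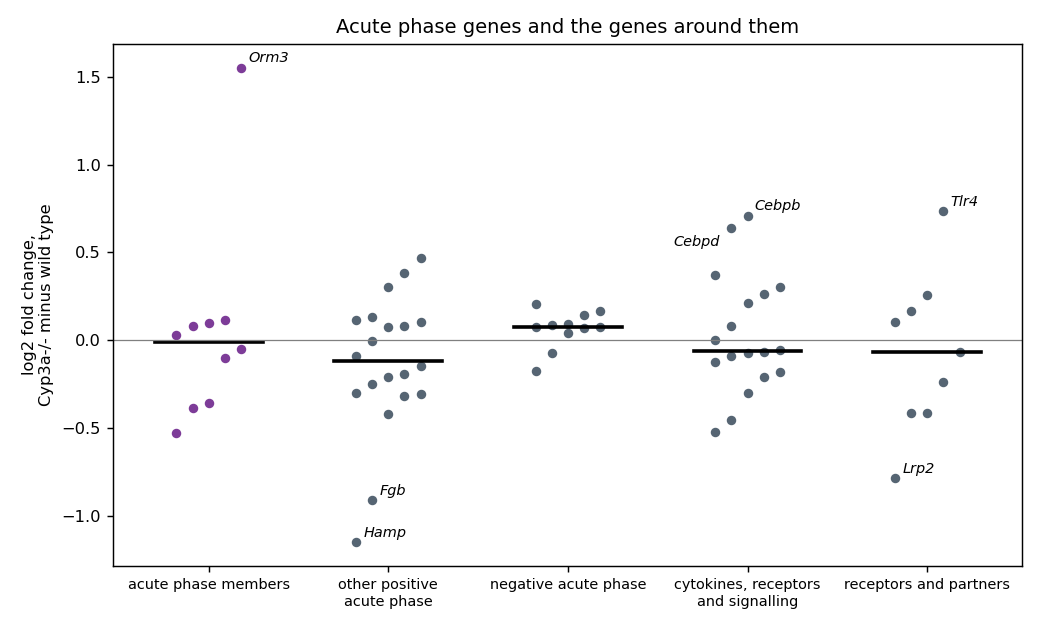
Log2 fold change, Cyp3a-/- minus wild type (vertical axis), of every tested gene (points) of the acute phase members and 4 lists of related genes, with each list's median (bar). The medians lie between -0.12 and 0.08, and Orm3 at 1.55 and Hamp at -1.15 are the points farthest from 0.

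Cells other than hepatocytes can add to some of these signals, and their markers were read in the same livers. Of 10 neutrophil markers 4 were tested (S100a8, S100a9, Camp and Elane), and their summed scaled signal was 2.99 and 1.92 in the Cyp3a-/- livers, against 2.40 and 1.73 in the wild type livers. S100a8 and S100a9 were highest in wild type 1, at 0.214 and 1.15. Camp and Elane, both granule genes, were highest in Cyp3a-/- 1, at 0.706 and 1.30, so the 4 markers did not share an order of the livers. Ngp, Ltf, Mpo, Mmp8 and Cxcr2 were not well above background on any array, and Retnlg did not pass the filter. The 9 macrophage markers, among them Adgre1 and Clec4f, were all tested, with sums of 47.2 and 51.9 in the Cyp3a-/- livers, against 57.9 and 59.5 in the wild type livers. For Saa3, as for this sum, both Cyp3a-/- livers lay below both wild type livers, but the 9 markers did not share this order. In 4 of them both Cyp3a-/- livers lay below, in 1 both lay above, and in 4 the genotypes overlapped. The part of macrophages in the Saa3 values was not tested. Of 6 adipocyte markers 2 were tested, with sums of 1.63 and 1.90 in the Cyp3a-/- livers against 1.63 and 1.43 in the wild type livers, and Adipoq, Plin1, Lep and Retn were not well above background on any array. The endothelial sum (5 of 5 tested, with Stab2 and Lyve1) was 32.4 and 29.6 in the Cyp3a-/- livers, against 36.4 and 27.7 in the wild type livers. The stellate cell sum (5 of 5, with Lrat and Des) was 1.71 and 2.16 in the Cyp3a-/- livers, against 3.03 and 2.07 in the wild type livers. Col3a1 made up most of it in wild type 1, at 1.80. The bile duct sum (4 of 5, with Krt19 and Krt7) was 1.14 and 0.989 in the Cyp3a-/- livers against 0.834 and 1.45 in the wild type livers. The lymphocyte sum (3 of 5, with Cd3e) was 3.78 and 2.85 in the Cyp3a-/- livers against 3.88 and 2.95 in the wild type livers. The endothelial, stellate cell and lymphocyte sums were highest in wild type 1, as Saa1 and Saa2 were. The lymphocyte sum was so by little, at 3.88 against 3.78 in Cyp3a-/- 1. Wild type 1 was highest for 2 of 5 endothelial, 4 of 5 stellate cell and 2 of 3 lymphocyte markers. The part of these cells in the Saa1 and Saa2 values was not tested. No marker of these lists passed the threshold (limma, 0 in each), and the macrophage and lymphocyte lists held 1 marker each, lower, with p below 0.05 before adjustment.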

How the data were processed

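Per the file headers and the submitters' processing notes, the authors extracted each array with Agilent Feature Extraction 11.5.1.1. The deposited processed intensity is background-subtracted and detrended, not normalized between arrays. The authors also deposited log2 values without stating scale, centring or direction. Set against the scanner values, the table matched log2 intensities scaled to each array's 75th percentile and then centred per probe on the median (column medians -0.02 and 0.02 for the Cyp3a-/- arrays, 0.06 and -0.07 for the wild type arrays). Those 3 properties were inferred.

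Control spots and spots marked as outliers (113 to 148 per array) were left out, and spots of a probe were averaged. Intensities were taken to log2, and the 75th percentile of each array was subtracted. Probes well above background on both arrays of either genotype were kept (21508 of 39429). RefSeq accessions, without version, were matched to GRCm38.p6 gene names (28025 probes named, 11404 unnamed). A gene was represented by its kept probe of highest mean signal, and an unnamed probe stood for itself. No fit dropped a member's array. Per the file headers the array design is of build mm9, so coordinates are given only for the RefSeq promoter windows.

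The comparison used limma 3.58.1 under R 4.3.3 (lmFit, eBayes, 2-sided, Benjamini-Hochberg over all 17552 features). The prior held 3.52 degrees of freedom and the residuals 2. P-values measure the spread between these livers only, and 2 arrays per genotype limit the precision of every value. An "at least" fold sets the brighter genotype's log2 mean against a floor for the dimmer one, which on each array is the lowest signal well above background, or the probe's own signal where that is higher. Promoter windows were aligned with Biopython 1.88. The script was tested on simulated data. Members, lists and the rule for naming genes (all members, the 3 largest changes of each related list, the first markers of each cell type, the 3 genes nearest to each family) were chosen with earlier results of these data known. Saa4, Socs3 and the genes below background were named after their values were seen.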

Additional observations from a re-analysis of the deposited data

How the results depend on the processing

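With 2 livers per genotype the result of 0 called members held in 14 of 15 alternative settings, the exception being median scaling, which called 1, Orm3. Over all features 48 were called (31 higher, 17 lower), 665 with median scaling (392 higher, 273 lower), 13 with no filter on dim probes, 9 with the filter of all 4 arrays, 95 without Cyp3a-/- 1, 527 without Cyp3a-/- 2, 8 without wild type 1 and 7 without wild type 2. The members' median log2 fold change of -0.01 became -0.11 with quantile normalization and lay between -0.11 and 0.069 with 1 array left out. Why these values moved was not tested. Lbp reversed with quantile normalization (-0.022) and the stellate cell marker Des with normexp background correction (0.00042).

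With 1 array left out, several members changed sign: Saa1 ranged from -0.82 to 0.11, Lcn2 from -0.29 to 0.52, Orm1 from -0.13 to 0.041, Orm2 from -0.29 to 0.10, Hp from -0.0097 to 0.21, Apcs from -0.091 to 0.25 and Lbp from -0.14 to 0.20. Orm3 ranged from 1.11 to 1.99, Saa2 from -0.86 to -0.18 and Saa3 from -0.61 to -0.16, each with 1 sign. So did Tlr4 (0.28 to 1.19), Cebpd (0.33 to 0.96), Hmox1 (-0.61 to -0.22), Lrp2 (-1.07 to -0.49), Clec4f (-0.54 to -0.094) and Hba-a1 (-1.49 to -0.66). The genotypes of all these genes did not overlap, and then leaving out 1 array cannot change the sign. Their single sign thus adds nothing to the lack of overlap. With 1 array left out, the genotype with 1 array is assumed to vary like the other. Among other named genes the ranges that crossed 0 were -1.83 to 0.016 for Fgb, -0.46 to 0.11 for Apoa1, -0.0023 to 0.33 for Serpina6, -0.012 to 0.30 for Alb, -0.25 to 0.094 for S100a8, -0.55 to 0.22 for S100a9, -0.11 to 0.033 for Adgre1, -0.35 to 0.046 for Stab2, -0.17 to 0.42 for Lyve1, -0.88 to 0.23 for Krt19, -0.051 to 0.17 for Krt7 and -0.20 to 0.32 for Cd3e.

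The sources do not say that replicate numbers pair livers across genotypes, and deviations of same-numbered livers from their genotype means correlated at -0.10 over all features. With the replicate block 58 features and 0 members were called (Orm3 1.55, limma adjusted p = 0.161). The crossed replicate block, added after seeing the data, called 53 and 0. For slide as a random block, duplicateCorrelation gave no value with 4 arrays on 3 slides. With a correlation of 0.35 taken from the ratio of the within-genotype spreads, chosen after seeing the data, 33 features and 0 members were called (Orm3 adjusted p = 0.581).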

Other observations

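Outside the acute phase genes, the scavenger receptor gene Marco, a macrophage marker, had scaled signals of 1.80 and 2.04 in the Cyp3a-/- livers, against 4.01 and 7.05 in the wild type livers (log2 fold change -1.47 ± 0.30, SE, n = 2 per genotype; limma adjusted p = 0.246). Of the 9 macrophage markers it was the 1 with an unadjusted p under 0.05, while Adgre1 had 1.27 and 1.15 in the Cyp3a-/- livers against 1.24 and 1.25 in the wild type livers. The metallothionein genes Mt1 and Mt2, which bind zinc and are induced by interleukin 6 and by glucocorticoids, were highest in wild type 1. Mt1 had 3.43 and 7.08 in the Cyp3a-/- livers, against 9.78 and 3.80 in the wild type livers. Mt2 had 0.836 and 1.48 in the Cyp3a-/- livers, against 1.90 and 0.919 in the wild type livers. Marco, Mt1, Mt2, Fga, Fgg and Camp were named after their values were seen.

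Fgb was read by 1 spot per array, so the value of 140 in Cyp3a-/- 1 rests on 1 spot. The alpha and gamma chains did not share it: Fga had 32.8 and 37.4 in the Cyp3a-/- livers, against 42.0 and 45.3 in the wild type livers, and Fgg 530 and 519 against 551 and 502 in the wild type livers.

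Camp, a neutrophil granule gene, had 0.706 and 0.259 in the Cyp3a-/- livers, against 0.211 and 0.190 in the wild type livers (limma adjusted p = 0.531). Hba-a1, a haemoglobin chain and erythroid marker, had 18.8 and 33.6 in the Cyp3a-/- livers, against 49.5 and 56.7 in the wild type livers (log2 fold change -1.07; adjusted p = 0.361). Without Cyp3a-/- 2 it stood at -1.49 (adjusted p = 0.032), a p that takes its spread from the wild type pair and the prior alone, and without Cyp3a-/- 1 at -0.66 (adjusted p = 0.425). With median scaling it passed at -1.04 (adjusted p = 0.032).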
